A study of Homo sapiens with 4 samples.

Results

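The thymosins and actin monomer regulators described here are 10 genes, TMSB4X, TMSB10, PFN1, PFN2, CFL1, CFL2, DSTN, ACTB, ACTG1 and CAP1, out of 59384 gene names in the count table. They were selected by gene name, with earlier results of the same comparison known. The shFABP4 against pLKO values of these genes are therefore given as a description, with no test. RNA was sequenced from Daoy, an established human medulloblastoma cell line. One group of 2 libraries received the pLKO control virus and is labelled wild type. The other, also of 2, received shFABP4 lentivirus and is labelled as a knockdown of FABP4, a fatty acid binding protein. FABP4 itself was counted at 1 and 6 fragments in pLKO, against 14 in shFABP4 1 (4.71 expected from background) and 0 in shFABP4 2, too few to check the labels. No label ties the replicates to independent cultures, so their spread may be technical, and the model is limited to a single line.

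Actin cycles between monomers (G-actin) and filaments (F-actin), and the cell keeps a large pool of monomers ready for assembly. Beta-thymosins are small peptides that bind and hold back monomers, profilins exchange the nucleotide on actin and deliver monomers to growing filament ends, and cofilins and destrin sever filaments and release monomers. CAP1 works with cofilin to recycle those monomers. G-actin also binds MRTF coactivators of the transcription factor SRF and so links the monomer pool to transcription of actin and actin-binding genes.

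The 4 libraries differed widely in depth and makeup. They held 2539862 counted fragments (shFABP4 1) to 20431660 (shFABP4 2), and a fragment was counted in 22350 to 25560 gene names in 3 libraries but in 51762 in shFABP4 1. Coding genes at 0 in all libraries but shFABP4 1 carried 3.44 fragments per kb there at under 40% GC and 18.4 at 60% GC or more. The expected background of each gene in shFABP4 1 was taken from these rates. Over gene names matched to GENCODE 29 it summed to 45.1% of the fragments of that library. It is an average over genes of like GC content, and single genes departed from it in both directions. For example, CD68 held 4 fragments against 35.4 expected, and PFN3 held 29 against 10.1. Of the markers set for the line, VIM and CD44 were abundant in all libraries (VIM at 13811 and 21475 fragments in pLKO), while ATOH1 and OTX2 held 0 fragments outside shFABP4 1, SOX2 at most 2 and ZIC1 at most 3. The other markers were low in pLKO and higher in shFABP4 2, with GLI1 at 49 and 72 against 479, GLI2 at 17 and 23 against 187, NES at 35 and 69 against 180, and SOX9 at 42 and 66 against 249. The immune, hepatocyte and epithelial markers held at most 18 fragments in any library other than shFABP4 1, where they held 4 to 83 against 16.3 to 64.4 expected from background.

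Levels are given as fragments per kb of exon per 1000000 fragments of effective library size, with libraries scaled to each other on the 1000 gene names most abundant per kb in pLKO. These genes took 64.3% and 64.4% of all pLKO fragments, 57.2% in shFABP4 2 and only 15.4% in shFABP4 1. Scaling over all genes tested lets the background of shFABP4 1 weigh on every value. Levels on that scaling are given for ACTG1, DSTN and CFL2, and fitted changes on both scalings further below. Ratios between genes within a library do not depend on scaling and come first. Several of them set a gene of lower level over an abundant one, and lower genes were higher in general. Scaled on the abundant genes, the median log2 fold change was 1.18 over gene names with at least 10 fragments expected in shFABP4 1 from their pLKO level. Over the abundant genes, in their own fit, it was -0.04. Whether any ratio goes beyond that general shift was not tested.

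TMSB10 and TMSB4X encode thymosin beta 10 and beta 4. The genes lie on chromosome 2 from 84905656 to 84906671 (plus strand) and on chromosome X from 12975110 to 12977227 (plus strand), on GRCh38, with 461 and 1703 bases of merged exons. Their coding sequences are shown because their ratio differed most between the groups among the 9 ratios computed, and because they show how far the fragments of each can be told apart. They are the complete coding parts in GENCODE 29, 135 bases each, and capitals mark the 37 bases that differ, 24 of them at the third position of a codon.
TMSB4X: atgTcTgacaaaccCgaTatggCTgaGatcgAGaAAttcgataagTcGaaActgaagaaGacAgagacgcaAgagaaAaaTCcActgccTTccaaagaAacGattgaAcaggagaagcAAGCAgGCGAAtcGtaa
TMSB10: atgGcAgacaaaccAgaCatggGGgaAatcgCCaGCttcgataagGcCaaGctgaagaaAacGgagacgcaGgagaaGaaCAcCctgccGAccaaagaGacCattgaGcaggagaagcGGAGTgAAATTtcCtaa

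The identity of the coding parts was 72.6%, and their longest shared run was 10 bases. TMSB10 was the most abundant of the 10 genes per kb in every library and ranked 3 among all gene names in each of them. It held 48959 and 74496 fragments in pLKO, against 2088 in shFABP4 1 and 70980 in shFABP4 2. TMSB4X held 662 and 1106 fragments in pLKO, against 780 in shFABP4 1 and 11494 in shFABP4 2, so the shallowest library held more TMSB4X fragments than the first pLKO library. Per kb, TMSB4X stood at 0.00366 and 0.00402 times TMSB10 in pLKO, at 0.101 in shFABP4 1, and at 0.0438 in the deeper shFABP4 2. The ratio was thus 26.3 and 11.4 times the pLKO mean, with both shFABP4 libraries far outside the pLKO pair.

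As a share of the fragments of both thymosins, TMSB4X made up 1.33% (95% exact binomial interval 1.24 to 1.44) and 1.46% (1.38 to 1.55) in pLKO. In shFABP4 1 it made up 27.2% (25.6 to 28.9), and in shFABP4 2 13.9% (13.7 to 14.2). These intervals cover counting error only, and the shFABP4 libraries differed from each other by more than it. With the expected background of 12.2 fragments taken off, TMSB4X in shFABP4 1 kept a ratio 26.0 times the pLKO mean. The level of TMSB4X was 43.2 and 47.0 in pLKO, against 718 in shFABP4 1 and 432 in shFABP4 2, and that of TMSB10 was 11800 and 11690 against 7096 and 9851. Among the 10 genes TMSB4X moved from the eighth place per kb in both pLKO libraries to the third in shFABP4 1 and the fifth in shFABP4 2.

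**Figure D1:**
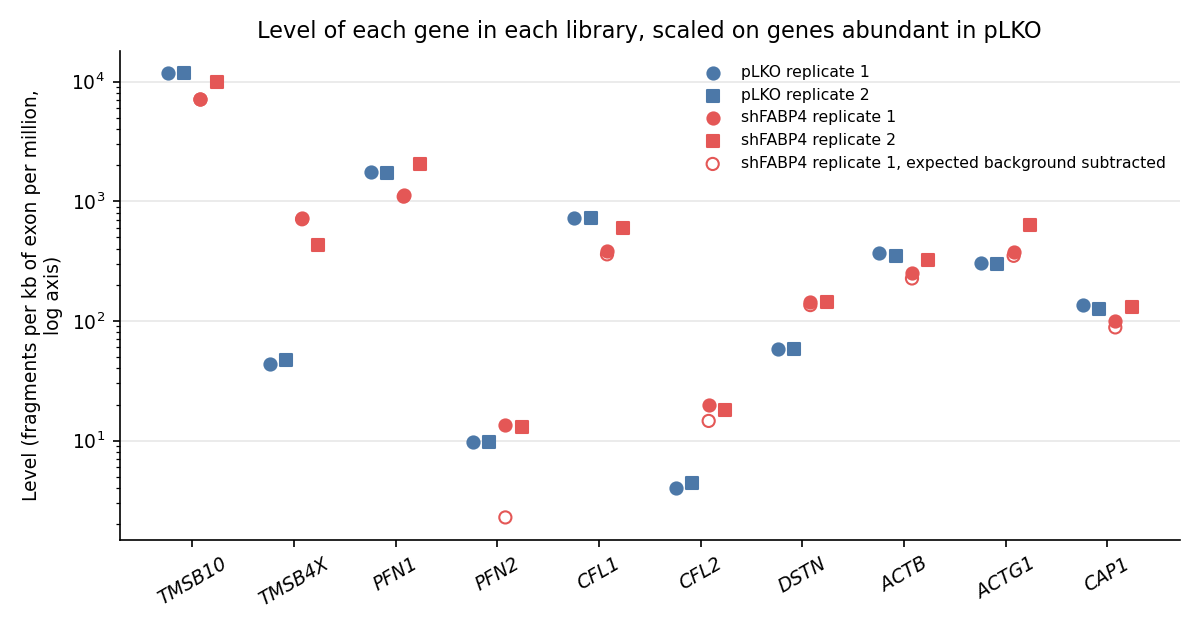
Level of each of the 10 genes in each library (fragments per kb of exon per 1000000, log axis, scaled on the genes abundant in pLKO), with blue points for pLKO and red points for shFABP4. Circles are replicate 1, squares replicate 2, and open circles are shFABP4 1 with its expected background subtracted. TMSB4X lies at 43.2 and 47.0 in pLKO, against 718 and 432 in shFABP4, while TMSB10 stays the highest gene in all 4 libraries.

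Summed over both genes, the thymosins were lower relative to actin in shFABP4. TMSB4X and TMSB10 together stood at 17.7 and 18.0 times ACTB and ACTG1 together per kb in pLKO, at 12.5 in shFABP4 1 and at 10.7 in shFABP4 2. Both shFABP4 libraries lay below both pLKO libraries, at 0.699 and 0.602 times the pLKO mean. TMSB10, with its short exon length, carries most of that sum per kb, and without division by length the mean log2 difference was -0.38 in place of -0.62.

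ACTB and ACTG1 encode beta- and gamma-actin, the cytoplasmic actins of non-muscle cells, whose monomers the other proteins bind. ACTB lies on chromosome 7 from 5526409 to 5563902 (minus strand, 4405 bases of exons) and ACTG1 on chromosome 17 from 81509413 to 81523847 (minus strand, 4052 bases). The first 60 bases of their coding sequences (GENCODE 29) are shown because the proteins are best known to differ at this end, with the 10 differing bases in capitals.
ACTB: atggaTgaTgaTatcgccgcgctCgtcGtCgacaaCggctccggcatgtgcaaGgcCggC
ACTG1: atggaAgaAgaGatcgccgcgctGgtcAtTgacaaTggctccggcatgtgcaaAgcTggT

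Over all 1128 coding bases the identity was 91.2%, with 94 of the 99 differing bases at the third codon position and a longest shared run of 59 bases. Fragments that map equally well to more than 1 place were not asked for in the counting command, so part of each actin's coding fragments may be missing from its count. ACTB held 14571 and 21414 fragments in pLKO, against 708 in shFABP4 1 and 22148 in shFABP4 2. ACTG1 held 11037 and 16887 in pLKO, against 971 in shFABP4 1 and 40298 in shFABP4 2. ACTB was the more abundant actin in both pLKO libraries, and ACTG1 in both shFABP4 libraries.

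ACTG1 took 43.1% (95% exact binomial interval 42.5 to 43.7) and 44.1% (43.6 to 44.6) of the fragments of the pair in pLKO, against 57.8% (55.4 to 60.2) in shFABP4 1 and 64.5% (64.2 to 64.9) in shFABP4 2. Per kb, its ratio to ACTB went from 0.823 and 0.857 (pLKO) to 1.49 and 1.98 (shFABP4), a mean log2 difference of 1.03 where the pLKO libraries differed by 0.06 and the shFABP4 libraries by 0.41. The level of ACTB was 368 and 352 in pLKO against 252 and 322, and the level of ACTG1 was 303 and 301 against 375 and 636. On this scaling ACTB was lower and ACTG1 higher in both shFABP4 libraries than in both pLKO libraries. Scaled over all genes tested, ACTG1 split instead, at 413 and 413 in pLKO, against 62.4 in shFABP4 1 and 561 in shFABP4 2.

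The other actins, most of them muscle forms, were near absent. ACTA1 held 3 and 6 fragments in pLKO, ACTA2 2 and 8, ACTG2 2 and 11, and ACTC1 and ACTBL2 0. In shFABP4 2 these genes held 0 to 54 fragments, with ACTA2 the highest. In shFABP4 1 they held 16 to 69 against 13.2 to 40.4 expected from background.

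SRF binds the CArG box, a motif of 10 bases in which a run of A or T lies between a pair of C and a pair of G. Promoters of 8 of the 10 genes were matched by symbol in the RefSeq table (GRCh38.p14, 300 bases around each start site), where ACTB and PFN2 were not matched. Among these 8, only ACTG1 held a CArG box (both strands searched), against 1.29% of 35116 promoters. No box in this window says nothing about the other genes' regulation. The motif GGGCGG was found in all 8, against 45% of promoters, and TATAAA in 0 of 8 against 11.5%. A gene was counted if any of its promoters held the motif, and CAP1 and CFL2 have several, while the percentages count single promoters. The counts and percentages are therefore not of like units. The ACTG1 promoter is shown because it is the one with the box, which is in capitals and starts 94 bases before the start site. It runs over chr17:81512750-81513049 on the minus strand and is written 5′ to 3′.
ACTG1: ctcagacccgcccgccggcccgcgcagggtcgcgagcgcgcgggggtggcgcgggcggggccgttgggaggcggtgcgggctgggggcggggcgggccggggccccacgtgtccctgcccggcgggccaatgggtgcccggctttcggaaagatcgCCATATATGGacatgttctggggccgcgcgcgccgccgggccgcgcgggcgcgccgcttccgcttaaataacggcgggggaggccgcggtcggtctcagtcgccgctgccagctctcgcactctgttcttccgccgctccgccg

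CFL1, CFL2 and DSTN encode cofilin 1 (the non-muscle form), cofilin 2 (the form best known from muscle) and destrin, also called actin depolymerizing factor. CFL1 lies on chromosome 11 from 65823022 to 65862026, CFL2 on chromosome 14 from 34709113 to 34714823 (both on the minus strand) and DSTN on chromosome 20 from 17570075 to 17609919 (plus strand). Their coding sequences were 64.1% to 70.1% identical, with shared runs of at most 15 bases. CFL1 held 38460 and 58606 fragments in pLKO, against 1443 in shFABP4 1 and 55012 in shFABP4 2. DSTN held 1890 and 2904 in pLKO, against 332 in shFABP4 1 and 8137 in shFABP4 2. CFL2 held 180 and 302 in pLKO, against 63 in shFABP4 1 and 1396 in shFABP4 2. CFL1 led this family in every library, and the minor forms took a larger part of it in both shFABP4 libraries. The general shift of lower genes, given above, is not taken out of these values.

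Per kb, DSTN stood at 0.0792 and 0.0799 times CFL1 in pLKO, at 0.371 in shFABP4 1 and at 0.238 in shFABP4 2, which is 4.66 and 3.0 times the pLKO mean. CFL2 stood at 0.00555 and 0.00612 times CFL1 in pLKO, against 0.0518 and 0.0301 in shFABP4, or 8.88 and 5.16 times the pLKO mean. In shFABP4 1, background was expected to supply 17.0 of the 63 CFL2 fragments (27.0%) and 17.2 of the 332 DSTN fragments (5.19%). With it subtracted from numerator and denominator, the ratios in shFABP4 1 were 6.94 and 4.74 times the pLKO mean. The levels of DSTN were 57.7 and 57.7 in pLKO and 143 in each shFABP4 library, and those of CFL1 were 729 and 723 against 386 and 600. On this scale DSTN and CFL2 were higher and CFL1 lower in both shFABP4 libraries than in both pLKO libraries. Scaled over all genes tested, DSTN split, at 78.7 and 79.0 in pLKO against 23.8 in shFABP4 1 and 126 in shFABP4 2. CFL2 split as well, at 5.52 and 6.05 in pLKO against 3.32 and 15.9, while CFL1 stayed lower. Relative to actin, the summed family lay below the pLKO pair in shFABP4, at 1.18 and 1.20 per kb in pLKO against 0.874 and 0.795.

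**Figure D2:**
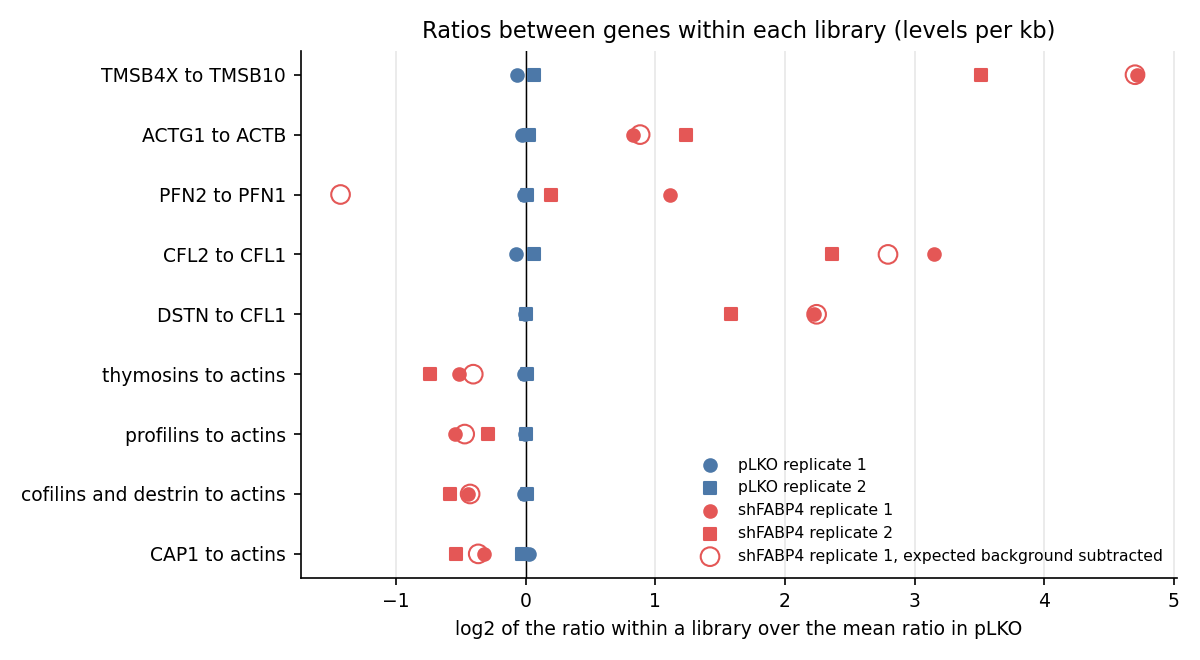
Log2 of each within-library ratio (levels per kb) over its mean in pLKO, for 9 ratios among the 10 genes. Blue points are pLKO, red points shFABP4, and large open circles shFABP4 1 with its expected background subtracted. The pLKO points lie within 0.1 of the zero line, TMSB4X to TMSB10 lies farthest to the right, and PFN2 to PFN1 changes side with the subtraction.

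PFN1 and PFN2 encode profilin 1, the ubiquitous form, and profilin 2, the form best known from brain. PFN1 lies on chromosome 17 from 4945652 to 4949061 and PFN2 on chromosome 3 from 149964904 to 150050788, both on the minus strand. PFN1 held 25167 and 37931 fragments in pLKO, against 1141 in shFABP4 1 and 51052 in shFABP4 2, and ranked second among the 10 genes per kb in every library. Its levels were 1749 and 1716 in pLKO, against 1118 in shFABP4 1 and 2043 in shFABP4 2, with shFABP4 1 below the pLKO pair and shFABP4 2 above it. PFN2 held 324 and 495 fragments in pLKO, against 32 in shFABP4 1 and 757 in shFABP4 2. Of the 32 fragments, 26.6 were expected from background. That value is a rate over genes of like GC content, not a measure for PFN2. How much of the PFN2 count in that library was its own signal could not be told.

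PFN2 stood at 0.00555 and 0.00563 times PFN1 per kb in pLKO, at 0.0121 in shFABP4 1 and at 0.00639 in shFABP4 2. With background subtracted the ratio in shFABP4 1 dropped to 0.00208, below the pLKO pair. The direction for PFN2 therefore rests on the 1.14-fold higher ratio of shFABP4 2 alone. That ratio in turn fell below the pLKO mean after the correction for GC content and length described below. The profilins together stood at 2.62 and 2.64 times the actins in pLKO, against 1.80 and 2.15 in shFABP4.

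CAP1, cyclase associated protein 1, lies on chromosome 1 from 40040233 to 40072649 (plus strand). It held 4619 and 6634 fragments in pLKO, against 242 in shFABP4 1 and 7790 in shFABP4 2. Its levels were 135 and 126 in pLKO, against 99.4 in shFABP4 1 and 131 in shFABP4 2, so shFABP4 2 lay between the pLKO libraries. Relative to the actins it stood at 0.201 and 0.193 in pLKO, against 0.158 and 0.136 in shFABP4. All 4 ratios to actin were lower in both shFABP4 libraries. They share the actin denominator, so they are not independent of each other. In it, ACTB was lower and ACTG1 higher when scaled on the abundant genes. Whether numerator or denominator accounts for the lower ratios was not tested.

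The order of the 10 genes per kb was the same in both pLKO libraries, from TMSB10 through PFN1, CFL1, ACTB, ACTG1, CAP1, DSTN, TMSB4X and PFN2 to CFL2. No neighbours in that order overlapped between the pLKO libraries. In both shFABP4 libraries ACTG1 stood above ACTB, DSTN above CAP1, CFL2 above PFN2, and TMSB4X above ACTB, DSTN and CAP1. In shFABP4 1, CFL1 and ACTG1 lay close together at 386 and 375, and in shFABP4 2 the order of these was reversed at 600 and 636. The 10 genes together took 1.62% and 1.60% of all pLKO fragments, but 0.307% in shFABP4 1 and 1.32% in shFABP4 2. Set against the fragments in the abundant genes, to which 7 of the 10 belong (not TMSB4X, CFL2 or PFN2), this was 2.52% and 2.48% in pLKO. It was 2.0% in shFABP4 1 and 2.30% in shFABP4 2.

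Between conditions, the fitted direction of DSTN, ACTG1 and PFN2 turned between scaling over all genes and on the abundant genes, and that of the other 7 genes did not. Scaled over all genes tested, TMSB4X was the single gene higher in both shFABP4 libraries than in both pLKO libraries, and 6 were lower. Over the 5728 gene names with at least 10 fragments expected in shFABP4 1 from their pLKO level, 6.04% were higher and 53.4% lower on that scaling. Scaled on the abundant genes, 5 of the 10 were higher and 3 lower, where 59.1% of the 5728 were higher and 8.61% lower. With background also subtracted, 4 were higher (TMSB4X, CFL2, DSTN and ACTG1) and 3 lower (TMSB10, CFL1 and ACTB), against 46.4% and 19.0% of the 5728. All 10 genes are among the 5728. The comparison chose the genes, so nothing is read from these counts.

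The fitted log2 fold change of TMSB4X in edgeR was 2.02 (SE 0.89) with scaling over all genes tested, where the median gene stood at 0.34, and 3.67 (SE 0.37) with scaling on the abundant genes, where the median of all tested genes stood at 2.50 and that of the abundant genes, in their own fit, at -0.04. DSTN went from -0.07 (SE 1.02) to 1.31 (SE 0.24) and ACTG1 from -0.40 (SE 1.38) to 0.74 (SE 0.30). CFL2 went from 0.74 (SE 0.85) to 2.17 (SE 0.73). PFN2 went from -0.93 (SE 0.87) to 0.46 (SE 0.73). TMSB10, PFN1, CFL1, ACTB and CAP1 lay below 0 on both, from -1.25 to -1.74 over all genes and from -0.13 to -0.56 on the abundant genes. Without shFABP4 1, TMSB4X stood at 2.62 over all genes, and without shFABP4 2 at -0.25, where all 10 genes were below 0 and the median gene stood at 2.22.

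**Figure D3:**
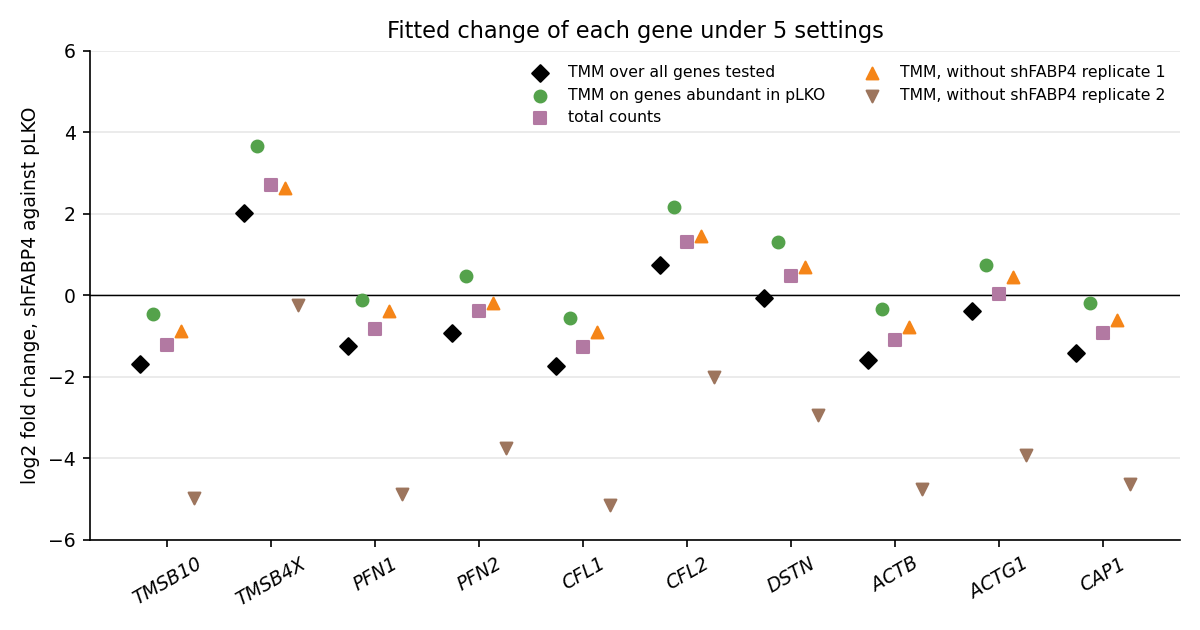
Fitted log2 fold change of each of the 10 genes, shFABP4 against pLKO, under 5 settings (2 TMM scalings, total counts, and TMM with either shFABP4 library left out). The settings shift all genes together: TMSB4X is the highest point in each, from -0.25 without shFABP4 replicate 2 to 3.67 with scaling on the abundant genes.

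GC content differed between these genes, and no relation with their fold changes was computed over the 10. It was 37.7% for CFL2, 42.0% for DSTN, 45.4% for PFN2, 49.2% for TMSB4X and 49.7% for CAP1, and 53.8% to 59.3% for TMSB10, CFL1, ACTG1, PFN1 and ACTB. Across 966 of the abundant genes, which share 4 libraries and are not independent replicates, GC content and log2 fold change had r = -0.222. After correction of each library for GC content and exon length, the log2 ratio of TMSB4X to TMSB10 went from 4.12 to 3.50, that of DSTN to CFL1 from 1.90 to 1.38 and that of CFL2 to CFL1 from 2.76 to 2.30. The ratio of ACTG1 to ACTB, genes of like GC content (57.4% and 59.3%), went from 1.03 to 1.04, and that of PFN2 to PFN1 from 0.66 (with an offset of 0.5 fragments) to -0.03. The first 4 stayed above 0 in each shFABP4 library, from 0.88 to 4.24 in shFABP4 1 and from 0.99 to 2.77 in shFABP4 2. PFN2 to PFN1 split instead, at 0.45 in shFABP4 1 and -0.51 in shFABP4 2.

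Retrocopies were read from pseudogene names that carry a parent's symbol. The 21 ACTG1 pseudogene names held 13 and 28 fragments in pLKO and 35 in shFABP4 2, but 246 in shFABP4 1, where 337 were expected from background. The 11 ACTB names held 0, 3 and 9 in those 3 libraries and 60 in shFABP4 1, where 158 were expected. The 6 TMSB4X names held 6 and 28 in pLKO, against 31 in shFABP4 1 and 18 in shFABP4 2, at most 3.97% of the TMSB4X count of the same library. PFN1P1 stood apart, at 393 and 618 fragments in pLKO, against 42 in shFABP4 1 and 2160 in shFABP4 2, and it was chosen after its values were seen. The 10 PFN1 names together held 1.56% and 1.63% of the PFN1 count in pLKO, against 9.90% in shFABP4 1 and 4.23% in shFABP4 2. In shFABP4 1 that was 113 fragments, with 59.5 expected from background. The 5 DSTN names held 6.46% and 5.44% of the DSTN count in pLKO, 8.73% in shFABP4 1 (29 fragments, 14.2 expected) and 2.02% in shFABP4 2. Whether fragments of these names came from the parent's transcripts was not tested. Counting ignored strand, and the most abundant overlapping genes on the opposite strand were larger beside their partner in shFABP4 1 than in the other libraries. TRABD2A, beside TMSB10, held 262 and 373 fragments in pLKO and 851 in shFABP4 2, but 92 in shFABP4 1 where TMSB10 held 2088. ENO3, beside PFN1, held 191 and 295 fragments in pLKO and 771 in shFABP4 2, but 166 in shFABP4 1 where PFN1 held 1141. MUS81, beside CFL1, held 560 and 798 in pLKO and 1115 in shFABP4 2, but 258 in shFABP4 1 where CFL1 held 1443. ANKUB1, on the same strand as PFN2, held 40 in shFABP4 1 and at most 2 in the other libraries.

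Genes of the wider actin pathway were taken from 7 lists of 103 genes in all. Over all genes tested, 0 of the 89 that passed the low-count filter were called by edgeR's quasi-likelihood test at an adjusted p of 0.05, against 0.00% of all 14735 genes in each direction. An unadjusted p under 0.05 was reached by 13 of the 89, beside 1818 of the 14735. DESeq2 called 5 of the 89, beside 719 of the 14735, and limma-voom called 0 of either. The median log2 fold change of the 89 was 0.01, against 0.34 over all tested genes. In the separate fit of the 1000 genes abundant in pLKO, 17 pathway genes could be tested, of which 1 was called higher and 3 lower, against 5.80% of the set called higher and 7.70% lower. Their median was -0.30, against -0.04 over the set.

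Of the called genes, 3 are described here, a pair of subunits of actin nucleation machines and a formin. ARPC4, a subunit of the Arp2/3 complex that starts branched filaments, fell with 7923 and 12103 fragments in pLKO against 153 and 5767 (log2 fold change -1.51, SE 0.26, adjusted p = 0.0498, edgeR). BRK1, a small subunit of the WAVE complex that switches Arp2/3 on, fell with 2568 and 3659 against 47 and 1497 (-1.68, SE 0.20, adjusted p = 0.0370, edgeR). FHOD1, a formin, was called higher with 2693 and 4199 against 334 and 8124 (0.79, SE 0.11, adjusted p = 0.0388, edgeR). In shFABP4 1, background was expected to supply 96.0 of the 334 FHOD1 fragments. Each call was lost with either pLKO library left out, with total-count scaling and with 2000 gene names in the set, and that of ARPC4 in 1 further alternative. The pathway calls numbered 0 without either pLKO library, 17 without shFABP4 1 and 16 without shFABP4 2, where 912 and 754 of the 1000 genes were called. The direction of ARPC4 and BRK1 held in all 13 alternatives, while FHOD1 reached -0.19 in 1 of 12.

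**Figure D4:**
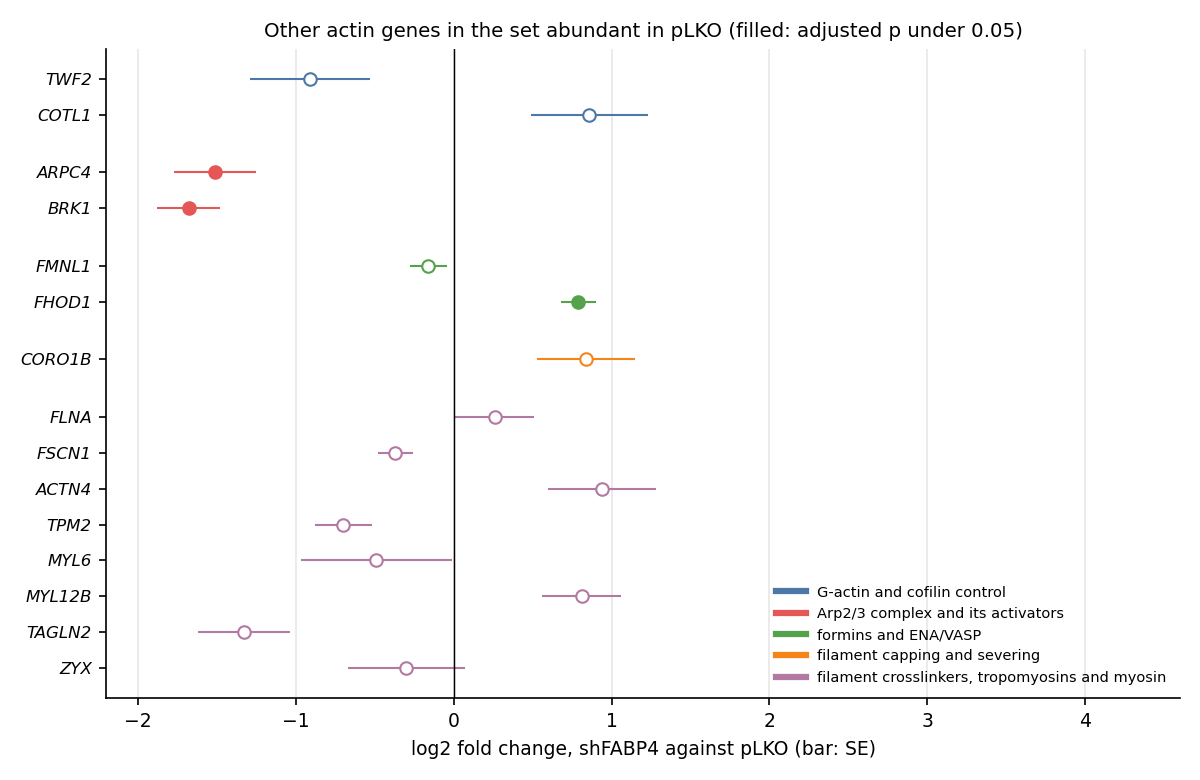
Log2 fold change (points) with SE (bars), shFABP4 against pLKO, for 15 pathway genes in the set of 1000 abundant genes, coloured by list. Filled points passed an adjusted p of 0.05 in edgeR: ARPC4 and BRK1 lie below 0 and FHOD1 above it.

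Other pathway genes named by the same rule did not pass. COTL1, a small actin-binding protein of the cofilin fold, was at 425 and 424 in pLKO against 541 and 998 (log2 fold change 0.86, SE 0.37). TWF2, a twinfilin that binds monomers and caps filament ends, was at 74.6 and 73.8 against 53.2 and 27.4 (-0.91, SE 0.38). CORO1B, a coronin, was at 55.7 and 57.3 against 129 and 75.2. MYL6, a myosin light chain, was at 1457 and 1421 against 619 and 1422, and TAGLN2, a calponin family protein, at 319.9 and 322.8 against 161 and 97.8. CORO1C, the second of the capping and severing list by level, was at 16.2 on average in pLKO and lay above it in both shFABP4 libraries with background subtracted.

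Sides were also counted over the pathway genes within and outside the abundant set. Of the 103 genes, 58 had at least 10 expected fragments in shFABP4 1, and with background subtracted 31 lay above both pLKO libraries and 11 below, against 46.4% and 19.0% of the 5728 gene names. In the Arp2/3 list this was 8 above and 2 below of 14, in the capping and severing list 5 and 1 of 6, and in the list of crosslinkers, tropomyosins and myosin 8 and 3 of 17. The 3 below in that last list were FSCN1, TPM2 and TAGLN2. VCL, vinculin, which joins filaments to adhesion sites, is of the same list, lay above, and was chosen after its values were seen. It held 446 and 699 fragments in pLKO, against 359 in shFABP4 1 (71.7 expected from background) and 15004 in shFABP4 2. SRF held 421 and 581 in pLKO, 117 in shFABP4 1 (77.7 expected) and 1064 in shFABP4 2. The SRF coactivator genes MRTFA and MRTFB had under 10 fragments expected in shFABP4 1 from their pLKO level, and held 127 and 117 there against 141 and 78.6 expected from background. In the other libraries MRTFA held 106 and 191 in pLKO and 144 in shFABP4 2, and MRTFB 60 and 68 in pLKO and 475 in shFABP4 2.

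The genes whose profile came nearest to that of TMSB4X were found among the 1000 abundant genes by Euclidean distance over the 4 libraries, on log2 levels less their pLKO mean. TMSB4X stood at 3.99 in shFABP4 1 and 3.26 in shFABP4 2. The nearest was BASP1, which binds the inner face of the membrane (distance 1.71), at 2.52 and 4.12. EEF1A1, a translation elongation factor, followed (1.74) at 2.70 and 2.10, then ATP5IF1, the inhibitor of the mitochondrial ATP synthase (2.21), at 2.06 and 2.19. The next were RPL6P27, a ribosomal protein pseudogene (2.23), and RP11-466H18.1 (2.35). No gene of the set came closer than 1.71, and with 4 libraries these distances describe the libraries only. TMSB4X itself ranked 1166 by pLKO level per kb and lies outside the set. Genes of its own level or lower were therefore not searched, and nearer profiles may exist among them.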

How the data were processed

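RNA-seq of 4 Daoy libraries was analysed, 2 pLKO and 2 shFABP4, grouped by the sample labels. The authors deposited raw counts. Per the file headers, featureCounts 2.0.0 counted fragments over exons of GENCODE 38, summed by gene name, with no option set for strand or for multiply mapped fragments. The exon length column (other unit, bases) is deposited with them. The submitters' processing notes also name FastQC, HISAT, StringTie and GRCh38. In the table, 7 lines without readable counts were left out. Depth was 2539862 to 20431660 fragments.

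The 10 genes, the lists and the tests were chosen with earlier results of these data known. The count test was edgeR 4.0.16 (R 4.3.3, TMM, filterByExpr with minimum counts of 10 and 15 in total, robust quasi-likelihood test, Benjamini-Hochberg over all genes fitted, threshold 0.05, two-sided). A second fit, with its own TMM, took the 1000 gene names with the highest pLKO level per kb (at least 200 bases of exon), chosen without the shFABP4 libraries, and served the pathway genes. An exact permutation test of 2 libraries against 2 cannot go below p = 0.333. Levels used 0.5 fragments as the offset where logged. GC content came from GENCODE 29 transcripts, which matched 91.5% of gene names with a mean of at least 20 fragments, and background rates from 2656 coding genes in 6 GC bins. The GC and length correction (natural splines, 4 degrees of freedom), the limit of 10 expected fragments and the pseudogene names were chosen after seeing the data. Named pathway genes were, per list, up to 2 called in each direction by size, with no overlap between the groups, or else the 2 highest in pLKO. One called pathway gene is not reported here by name. Binomial intervals are exact (95%). DESeq2 1.42.0 and limma 3.58.1 were alternatives, beside other scalings, filters, set sizes, left-out libraries and the replicate number as a block.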

Additional observations from a re-analysis of the deposited data

How the results depend on the processing

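Directions of the within-library ratios were compared over 7 settings (as reported, background subtracted, no division by length, each library left out). Most of these could not turn a direction. Exon length cancels between groups in a ratio of single genes. Leaving out a library could not turn any ratio, because the ranges of the groups did not overlap. Background subtraction could, and it turned PFN2 to PFN1 from 0.65 to -0.61 but no other ratio. For ratios to actin, division by length could also have turned a direction, and it did not. PFN2 to PFN1 thus held in 6 of 7 settings and the others in all 7. PFN2 to PFN1 ranged from -0.61 to 1.11 as a log2 difference. TMSB4X to TMSB10 ranged from 3.51 to 4.72, ACTG1 to ACTB from 0.83 to 1.24, CFL2 to CFL1 from 2.37 to 3.15 and DSTN to CFL1 from 1.58 to 2.22. Over all genes tested, 0 were called by edgeR (1818 at an unadjusted p under 0.05), 719 with DESeq2, 0 with limma-voom, 28 with the replicate number as a block, 69 with no filter on low counts, and 0 to 23895 with each library left out. Among the 1000 abundant genes 135 were called, and 27 with total-count scaling, 283 with DESeq2, 508 with limma-voom, 253 with the replicate block, 237 with background subtracted, 0 with 2000 gene names (540 at an unadjusted p under 0.05) and 1 to 912 with each library left out. Of the pathway genes 4 were called, and 0 with total-count scaling (5 at an unadjusted p under 0.05), 10 with DESeq2, 10 with limma-voom, 8 with the replicate block, 0 with 2000 gene names and 0 to 17 with each library left out. The split of the 135 calls, 58 higher and 77 lower, became 73 and 57 with upper-quartile scaling and 0 and 27 with total-count scaling. Leaving out shFABP4 1 gave 912 calls, shFABP4 2 754 and either pLKO library 1; over all genes these were 10242, 23895 and 0. In fits with 1 library in a group, that library is assumed to vary like the pair. The differences between replicates 1 and 2 had r = 0.152 between the groups over 1000 genes. With 2 pairs, and with shFABP4 1 shallow and holding a broad background, this cannot decide whether libraries of the same number were paired. In shFABP4 1 depth and background limit PFN2 and CFL2 most, at 32 and 63 fragments. TMSB4X (-0.25) and CFL2 (-2.01) fell below 0 without shFABP4 2, and DSTN, ACTG1 and PFN2 changed sign with scaling. The GC and length correction moved PFN1 to 0.11, as a mean of the shFABP4 libraries. In shFABP4 2 it moved TMSB10 from -0.25 to 0.17 and ACTB from -0.16 to 0.15, so neither was lower in both shFABP4 libraries after it. Their means stayed below 0, at -0.12 and -0.11. CFL1 stayed below 0 in both shFABP4 libraries. Causes of these shifts were not tested.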
